A study of Mus musculus with 12 samples.

Results

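Type I interferon-stimulated genes are the genes that cells switch on when interferon alpha or beta binds its receptor. Here 33 of them were followed in the mouse macrophage-like line RAW264.7, given bacterial lipopolysaccharide (LPS), an antibody against CD36, or both. They were listed by symbol, and each symbol matched 1 of the 31719 genes in the table of expression values. RNA was sequenced from 12 libraries in 4 groups of 3, all labelled WT: cells given LPS at 50 ng/ml together with anti-CD36 (LPS+anti-CD36), cells given LPS at 50 ng/ml alone, cells given anti-CD36 alone, and untreated cells. Anti-CD36 was used at a dilution of 1 in 100 in both groups given it. LPS activates macrophages through the receptor TLR4. CD36 takes up fatty acids and oxidised lipoproteins at the cell surface. The labels gave neither a treatment time nor an isotype control antibody, and nothing says that libraries of 1 group were made from separate cultures, so the spread behind every p-value may be technical.

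When LPS reaches TLR4 inside endosomes, the adaptors TICAM2 and TICAM1 and the kinase TBK1 activate the factor IRF3, which switches on interferon beta. Secreted interferon binds the receptor IFNAR1 and IFNAR2, the kinases TYK2 and JAK1 become active, and a complex that includes STAT2 and IRF9 binds the interferon-stimulated response element in the promoters of target genes. Many of the targets block steps of viral replication, and some, such as USP18, dampen the signal again.

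Of the 33 genes, 24 had a promoter in the RefSeq table used here (GRCm38.p6). Its 250 bases upstream of the start site were searched on both strands for the core of the interferon-stimulated response element, which is GAAA, any 2 bases and GAAA again. The core was present in 12 of the 24 promoters (50%), against 936 of 27025 genes (3.46%). The stretches of 8 of them are printed from before the first core to after the last, 5′ to 3′ on the strand of the gene, with the core in capitals on whichever strand it lies. Ifit3 is shown as a gene of large LPS change and Oas1g as one that differed between LPS+anti-CD36 and LPS, while the others were chosen after their values were seen. They show which genes share a stretch and how the cores are arranged.
Ifit3, chr19:34583353-34583436 (+): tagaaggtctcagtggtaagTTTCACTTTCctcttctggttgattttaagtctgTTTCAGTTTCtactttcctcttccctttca
Ifit3b, chr19:34607749-34607832 (+): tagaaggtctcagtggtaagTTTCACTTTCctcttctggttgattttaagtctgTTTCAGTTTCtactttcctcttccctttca
Ifit1, chr19:34640765-34640833 (+): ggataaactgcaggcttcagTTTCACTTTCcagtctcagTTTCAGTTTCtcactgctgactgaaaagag
Isg15, chr4:156200855-156200916 (−): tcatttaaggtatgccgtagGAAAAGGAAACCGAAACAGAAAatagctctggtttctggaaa
Oas1a, chr5:120907526-120907565 (−): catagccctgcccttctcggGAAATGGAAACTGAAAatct
Oas1g, chr5:120887614-120887651 (−): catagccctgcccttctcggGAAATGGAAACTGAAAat
Rsad2, chr12:26456543-26456592 (−): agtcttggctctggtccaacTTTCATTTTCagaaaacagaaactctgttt
Bst2, chr8:71537567-71537622 (−): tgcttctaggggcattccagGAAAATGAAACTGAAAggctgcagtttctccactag

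The Ifit3 and Ifit3b stretches were identical over all 84 bases, and those of Oas1a and Oas1g over the 38 bases they share. The counting tool was not given in the sources used here, so reads could be split between these near-identical copies, and their separate levels are uncertain. Isg15, Oas1a, Oas1g and Bst2 held overlapping copies of the core in a row, which print as 1 run of capitals, while Ifit1, Ifit3 and Ifit3b held 2 separate copies. A match in these windows is a description of the letters and does not show that a factor was bound.

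Recovered from the step between low values, depth ran from 30070450 to 54137810 counted reads per library, and between 14212 and 14878 genes were above 0. For an exon length of 2000 bases, 1 FPKM (fragments scaled by exon length and library depth, so a level per length) stood for 60.1 to 108.3 counted reads. Of 9 macrophage markers, 8 were at 1 FPKM or more, summing to 3459 to 5249 FPKM per library, while Mertk did not pass 0.0459 FPKM. The markers of T cells, B cells, neutrophils, fibroblasts, epithelium and endothelium were all under 1 FPKM in every library. Plasmacytoid dendritic cells, which are known for making interferon, share the gene Bst2 with the 33, and of their other listed markers Siglech and Ccr9 were under 1 FPKM in every library. The fourth, Tcf4, averaged 3.48 ± 0.13 FPKM in LPS+anti-CD36 cells, 5.19 ± 0.823 in LPS cells, 4.64 ± 0.527 in anti-CD36 cells and 5.79 ± 1.04 in untreated cells (SD, n = 3 each). Changes are differences in log2(FPKM + 1), tested in 1 limma model over the 10276 genes that reached 1 FPKM in 3 or more libraries. A gene was called at a Benjamini-Hochberg adjusted p under 0.05 over all of them, and errors of changes are standard errors.

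All 33 genes passed the filter, but Ifit3b, Mx1 and Herc6 did so only through libraries with LPS, where they are high, so their LPS change was bound to be a rise. The mean of 3 libraries, taken per gene, had a median over the 33 of 27.1 FPKM in LPS+anti-CD36 cells, 30.4 FPKM in LPS cells, 6.41 FPKM in anti-CD36 cells and 6.25 FPKM in untreated cells. In each group Bst2 was the highest, at 649 ± 62.7 FPKM in LPS+anti-CD36 cells, 569.7 ± 117 in LPS cells, 241 ± 33.9 in anti-CD36 cells and 195 ± 37.5 in untreated cells (SD, n = 3 each). Untreated cells already held 16 of the 33 at a mean of 10 FPKM or more, and 3 (Ifit3b, Mx1 and Herc6) at a mean under 1.

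**Figure D1:**
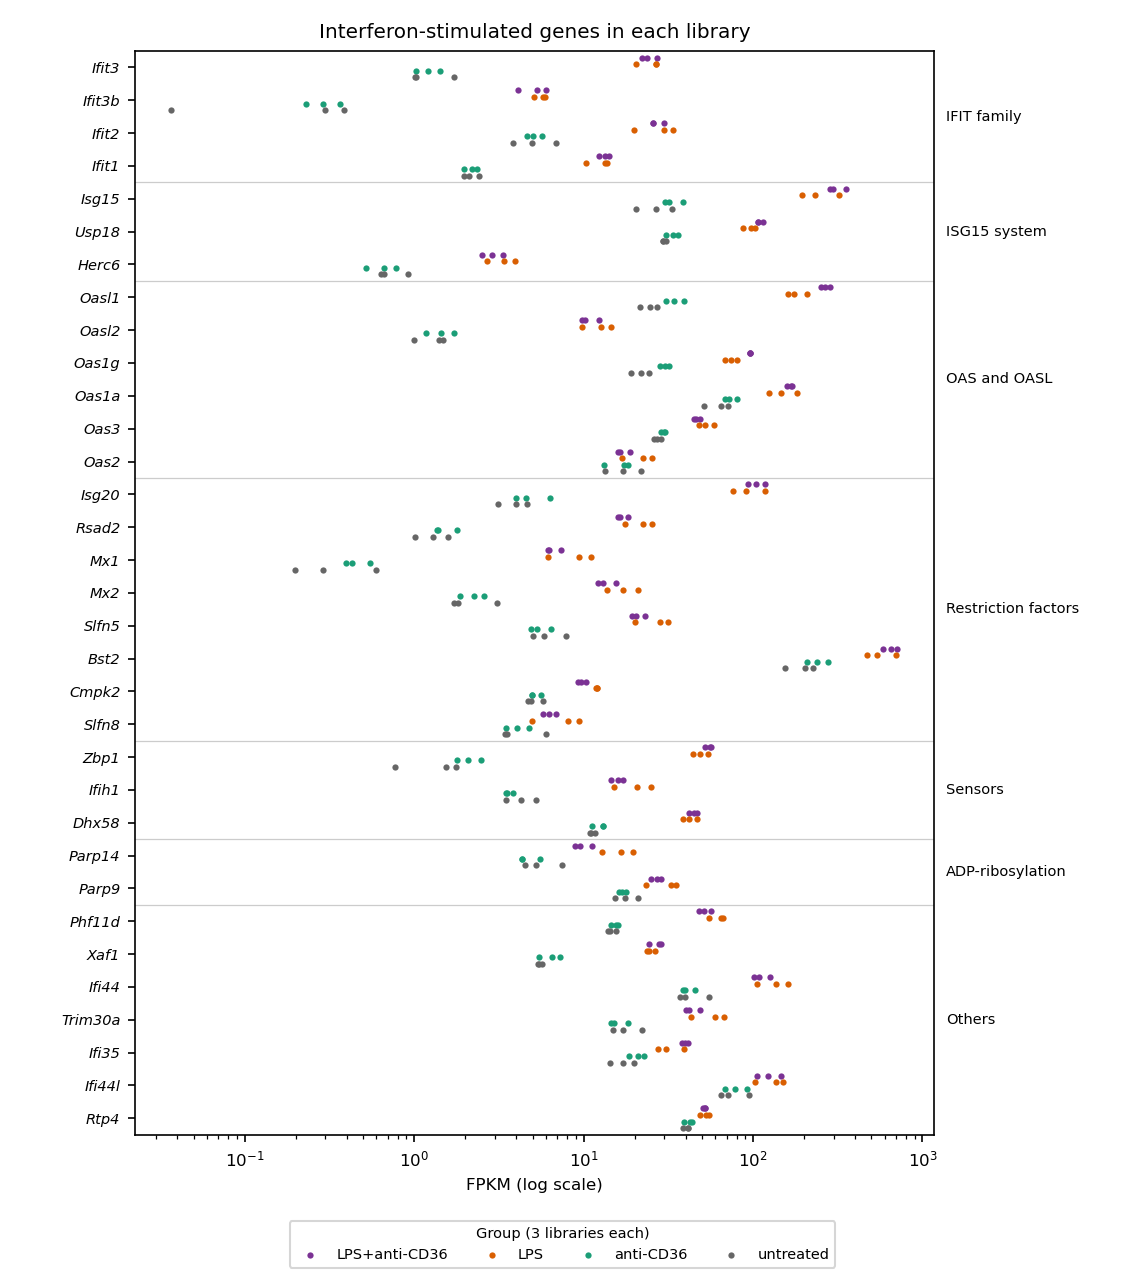
FPKM (log scale) of the 33 interferon-stimulated genes, by role and by size of the LPS change, with 1 point per library and 3 libraries per group. The points of both LPS groups lie right of those of both groups without LPS in nearly every row, with Oas2 at the foot of its family the clearest overlap.

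LPS alone raised nearly the whole set: 32 of 33 genes were higher than in untreated cells, none was lower, and Oas2 was not called. Without the 3 genes that passed the filter only through LPS libraries, 29 of 30 were higher, with a median of 1.78. The background was 49.8% of all genes called, 16.6% higher and 33.1% lower. The median change of the 33 was 1.83, against −0.14 over all genes tested, and single changes ran from 0.30 to 4.43. In 31 genes every LPS library lay above every untreated library, while in Oas2 and Slfn8 the groups overlapped. Over all genes the groups did not overlap in 49.6%, with 16.7% above and 32.9% below. The labels describe extraction of total RNA but also name the company 10x Genomics, known for single-cell kits. The table holds 1 value per gene and library and was read as bulk RNA, in which more cells that express a gene and more RNA per cell cannot be told apart.

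Zbp1, a sensor of Z-form nucleic acids that can trigger cell death, had the largest change. It had 54.1, 49 and 44.5 FPKM in LPS cells, against 1.76, 1.55 and 0.769 FPKM in untreated cells. Every LPS library was far above every untreated one, a ratio of means of 36.2 and a change of 4.43 ± 0.15 (limma, adjusted p = 6.45e-10). The other sensors were also higher: Dhx58 (LGP2), a regulator of the RNA sensors, had 46.7, 41.7 and 38.7 FPKM in LPS cells, against 10.9, 11.6 and 11 FPKM in untreated cells. Its groups lay well apart, with a change of 1.83 ± 0.09 (adjusted p = 1.25e-08). Ifih1 (MDA5), which senses long double-stranded RNA, averaged 20.2 ± 4.88 FPKM in LPS cells and 4.34 ± 0.902 FPKM in untreated cells (SD, n = 3 each).

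The IFIT family, proteins that bind viral RNA and hold back its translation, was higher in all 4 members, with a median change of 2.31. Ifit3 had 20.4, 26.8 and 26.8 FPKM in LPS cells, against 1.02, 1.03 and 1.71 FPKM in untreated cells. LPS replicate 1 was the lowest of its group and still above all untreated libraries (change 3.51 ± 0.14, adjusted p = 2.97e-09). Ifit2, the highest of the family, had 19.7, 29.8 and 33.6 FPKM in LPS cells, against 3.85, 4.99 and 6.9 FPKM in untreated cells, again with LPS replicate 1 lowest. Ifit3b rested on few reads without LPS, since its untreated libraries held 4, 18 and 28 counted reads, against 331, 361 and 402 in LPS libraries. On the log2(FPKM + 1) scale its change was 2.42 ± 0.13, while the ratio of means was 23.2, since that scale understates changes of low genes. Mx1 stood likewise, at a mean of 8.9 ± 2.5 FPKM in LPS cells and 0.362 ± 0.211 FPKM in untreated cells, with a change of 2.84 and a ratio of 24.6.

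All 3 genes of the ISG15 system were higher. Isg15, a ubiquitin-like protein that is joined to other proteins, had 320.5, 232 and 195 FPKM in LPS cells, against 33.1, 26.6 and 20.4 FPKM in untreated cells. The groups did not overlap, and the spread within each was wide (change 3.17 ± 0.20, adjusted p = 1.15e-07). Usp18, which removes ISG15 and also blocks signalling at IFNAR2, averaged 95.5 ± 7.74 FPKM in LPS cells and 30 ± 0.7 FPKM in untreated cells. Herc6, the main mouse ligase for ISG15, averaged 3.35 ± 0.636 FPKM in LPS cells and 0.744 ± 0.159 FPKM in untreated cells (SD, n = 3 each).

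Of the 6 genes of the OAS family, 5 were higher with LPS. The OAS enzymes make the messenger 2-5A, which activates RNase L, and the OASL proteins are related to them. Oasl1, the highest with LPS, had 207, 174 and 160.3 FPKM in LPS cells, against 27.1, 24.7 and 21.6 FPKM in untreated cells. All LPS libraries were far above the untreated ones (change 2.83 ± 0.12, adjusted p = 5.13e-09). Oas2 had 16.8, 22.4 and 25.4 FPKM in LPS cells, against 13.3, 17.2 and 21.7 FPKM in untreated cells. LPS replicate 1 lay below 2 of the untreated libraries, and the change of 0.30 ± 0.18 was not called (95% interval −0.11 to 0.70, adjusted p = 0.207). It was called in 2 of the other settings, among them median-of-ratios scaling (0.45, adjusted p = 0.0479).

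All 8 restriction factors, proteins that block steps of a virus's life cycle, were higher with LPS. Isg20, a 3′ to 5′ exonuclease, had 118, 91.3 and 76.2 FPKM in LPS cells, against 4.67, 4 and 3.11 FPKM in untreated cells. The groups were far apart, with a change of 4.28 ± 0.18 (adjusted p = 4.41e-09). Bst2 (tetherin), which holds budding virus at the cell surface, had 698, 542 and 469 FPKM in LPS cells, against 227, 203 and 153 FPKM in untreated cells. Its lowest LPS library lay above every untreated one (change 1.54 ± 0.18, adjusted p = 1.88e-05). Rsad2 (viperin), which makes a chain-ending nucleotide, averaged 21.8 ± 3.99 FPKM in LPS cells and 1.29 ± 0.287 FPKM in untreated cells. The Mx GTPases were higher as well; most laboratory mouse strains carry a defective Mx1.

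At the low end of this group, Slfn8, of the Schlafen family, had 4.94, 8.14 and 9.38 FPKM in LPS cells, against 3.46, 3.55 and 5.97 FPKM in untreated cells. LPS replicate 1 lay below untreated replicate 3, so the groups overlapped (change 0.66 ± 0.21, adjusted p = 0.021). The call was lost in 7 of 19 other settings, among them without untreated replicate 1 (0.55), untreated replicate 2 (0.57), LPS replicate 2 (0.59) or LPS replicate 3 (0.50).

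Both genes of ADP-ribosylation and all 7 other genes were higher. Parp9, which acts with the ligase DTX3L, had 23.4, 32.8 and 35.1 FPKM in LPS cells, against 15.2, 17.5 and 21 FPKM in untreated cells. The groups did not overlap, though LPS replicate 1 came close to the highest untreated library (change 0.72 ± 0.15, adjusted p = 0.00145). Ifi44l had 102, 138 and 150.3 FPKM in LPS cells, against 65, 70.7 and 94.5 FPKM in untreated cells, with no overlap (change 0.75 ± 0.18, adjusted p = 0.00492). The smallest called change was that of Rtp4, a transporter protein that restricts flaviviruses: it had 54.8, 53.1 and 48.8 FPKM in LPS cells, against 41.6, 41.5 and 38.5 FPKM in untreated cells. These narrow groups did not overlap (change 0.36 ± 0.07, adjusted p = 0.00182). The other 5 of these genes (Ifi44, Ifi35, Trim30a, Xaf1 and Phf11d) had changes from 0.88 to 2.01.

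Set against the core motif in these windows, with no test made, the median LPS change was 1.83 over the 12 genes with the core, 1.98 over the 12 without it and 1.63 over the 9 without a promoter in the table, which include Zbp1. Isg20 and Oasl1, of large change, held no core in the 250 bases.

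In the presence of the antibody, LPS raised the set again: 31 of 33 genes were higher in LPS+anti-CD36 than in anti-CD36 cells, none lower, and Oas2 and Slfn8 were not called. Without the 3 genes that passed the filter only through LPS libraries, 28 of 30 were higher, with a median of 1.69. The background was 47.5% of all genes, 16.3% higher and 31.3% lower. The median change of the 33 was 1.70 (from 0.07 to 4.16), and in 32 of 33 genes the groups did not overlap, against 63.9% of all genes, 21.6% above and 42.3% below. Slfn8 had 5.73, 6.29 and 6.9 FPKM in LPS+anti-CD36 cells, against 3.49, 4.77 and 4.06 FPKM in anti-CD36 cells. These groups did not overlap, yet the change of 0.52 ± 0.21 was not called (adjusted p = 0.0612). It was called in 7 of 19 other settings, among them median-of-ratios scaling (0.64, adjusted p = 0.0218) and with the trends with GC content and length removed (0.48, adjusted p = 0.0207). Oas2 had 15.9, 16.4 and 18.7 FPKM in LPS+anti-CD36 cells, against 13.2, 18.2 and 17.4 FPKM in anti-CD36 cells, with overlap and a change of 0.07 (95% interval −0.34 to 0.47). Ifi44l (0.63, adjusted p = 0.0137) lost its call with TPM scaling (0.60) and when anti-CD36 replicate 1 (0.53) or LPS+anti-CD36 replicate 3 (0.52) was left out.

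**Figure D2:**
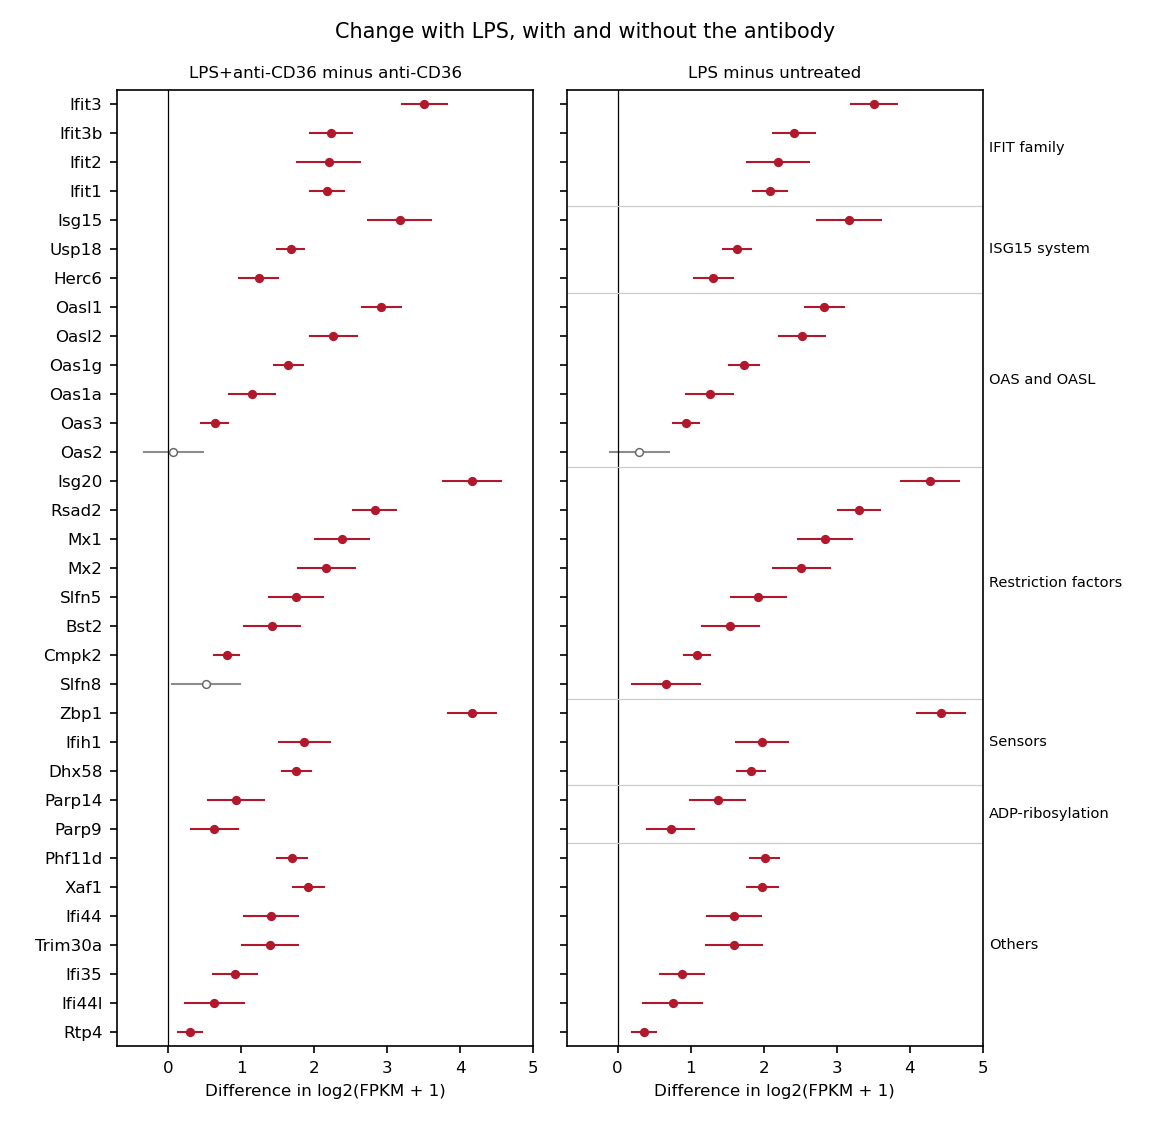
Change with LPS in log2(FPKM + 1), in the presence of anti-CD36 (left) and without it (right), with 95% intervals from the limma model. Filled red points were called, the largest change being that of Isg20 on the left (4.16) and of Zbp1 on the right (4.43), and the smallest that of Oas2 in both (0.07 and 0.30).

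Whether the antibody altered the LPS change was tested as an interaction, the LPS change with the antibody minus that without it. No gene of the 33 was called in it, by limma, with a background of 1.28% of all genes, 0.496% higher and 0.788% lower. An unadjusted p under 0.05 was found for 4 of the 33 and for 8.6% of all genes. The 4 were Cmpk2 (−0.29), Oas3 (−0.30), Rsad2 (−0.47) and Phf11d (−0.32), with adjusted p from 0.445 to 0.481. Values below 0, a smaller LPS change with the antibody, were found for 27 of 33 genes, with a median of −0.12 against 0.01 over all genes tested, and from −0.14 to −0.16 with the other scalings and the trends removed. The genes share libraries, so this count of signs is a description and was not tested. The 95% intervals still allow differences such as −0.89 to −0.06 for Rsad2 and −0.98 to 0.07 for Mx1. With the trend of each library with GC content and transcript length removed, a setting added after seeing the data, 2 genes were called lower, Phf11d (−0.35, adjusted p = 0.0122) and Rsad2 (−0.50, adjusted p = 0.038). The background in that setting was also larger, at 3.47% of 10092 genes, 1.24% higher and 2.23% lower.

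LPS+anti-CD36 cells were also compared with LPS cells to compare induced levels with and without the antibody. Of the 33 genes, 4 were called, with Oasl1 and Oas1g higher and Parp14 and Cmpk2 lower. That is near the background of 15.5% of all genes called, 7.34% higher and 8.14% lower. The median change was −0.11, against 0.02 over all genes tested. The groups did not overlap in 5 of the 33 genes, 3 above and 2 below, while over all genes 36.1% did not, 19.7% above and 16.4% below. With TPM scaling the median was −0.24.

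Oasl1, which in mice holds back translation of the interferon regulator Irf7, had 286, 267 and 251 FPKM in LPS+anti-CD36 cells, against 207, 174 and 160.3 FPKM in LPS cells. The lowest library with the antibody exceeded the highest without it (change 0.58 ± 0.12, adjusted p = 0.0109). Oas1g, a 2-5A synthetase, had 96.3, 96 and 96.2 FPKM in LPS+anti-CD36 cells, against 79.9, 74.1 and 68.7 FPKM in LPS cells. The groups did not overlap, and the libraries with the antibody lay almost at 1 value (change 0.37 ± 0.09, adjusted p = 0.0225). Its neighbour Oas1a, with the same promoter stretch, had 170.4, 167 and 158 FPKM in LPS+anti-CD36 cells, against 182, 146 and 125 FPKM in LPS cells. Those groups overlapped, and the change of 0.15 ± 0.14 was not called (adjusted p = 0.489).

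Parp14, an enzyme that attaches ADP-ribose to proteins, had 8.89, 9.5 and 11.2 FPKM in LPS+anti-CD36 cells, against 12.8, 16.6 and 19.6 FPKM in LPS cells. All libraries with the antibody lay below all without it (change −0.66 ± 0.17, adjusted p = 0.0279). Cmpk2, a mitochondrial nucleotide kinase encoded beside Rsad2, had 9.72, 9.27 and 10.3 FPKM in LPS+anti-CD36 cells, against 12, 12.1 and 11.9 FPKM in LPS cells. The groups did not overlap and each was narrow (change −0.27 ± 0.08, adjusted p = 0.0411). Usp18 was the fifth gene without overlap, at 115, 107 and 107 FPKM in LPS+anti-CD36 cells and 102, 97.2 and 87 FPKM in LPS cells, but was not called (0.20 ± 0.09, adjusted p = 0.123).

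Each of these 4 calls was lost when some single libraries were left out. Oasl1 lost its call when LPS replicate 2 (0.55) or replicate 1 of LPS+anti-CD36 (0.53) was left out. Oas1g lost it without any 1 of LPS replicates 2 and 3 and the 3 LPS+anti-CD36 replicates (0.32 to 0.37), and Parp14 without LPS replicates 2 or 3 or replicates 1 or 2 of LPS+anti-CD36 (−0.53 to −0.64). Cmpk2 lost it without any 1 of 7 libraries, untreated replicate 2, anti-CD36 replicate 3, LPS replicates 2 and 3 and the 3 LPS+anti-CD36 replicates (−0.24 to −0.31). Over all genes the share called fell too, to between 5.36% and 8% without LPS replicate 2 or 3 or any 1 LPS+anti-CD36 replicate. It was 11.4% without untreated replicate 2 and 11.1% without anti-CD36 replicate 3, against 15.5% with all libraries. Without LPS replicate 1, on the other hand, 14 of the 33 genes were called, 5 higher and 9 lower, with Parp14 at −0.81 and Oasl1 at 0.68. That is near the background in this setting, where 38.7% of 10251 genes were called.

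**Figure D3:**
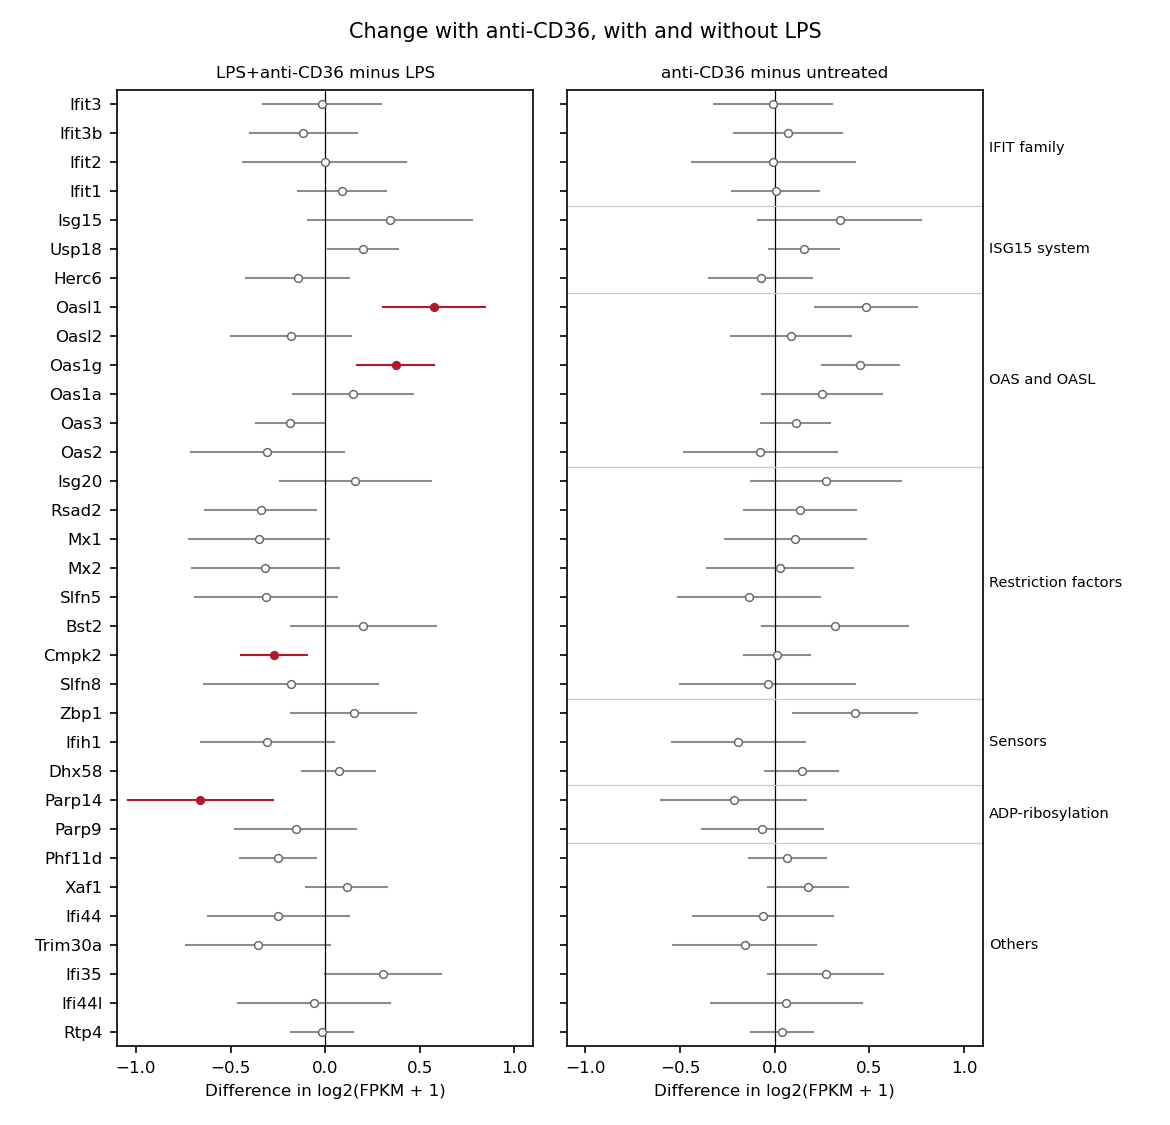
Change with anti-CD36 in log2(FPKM + 1), in the presence of LPS (left) and without it (right), with 95% intervals from the limma model. Filled red points were called: Oasl1, Oas1g, Cmpk2 and Parp14 on the left and none on the right, where Oasl1 and Oas1g lie at 0.48 and 0.45.

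By role, the restriction factors had a median of −0.29 (1 of 8 called, lower), ADP-ribosylation −0.41 (1 of 2, lower), the OAS family −0.02 (2 of 6, higher), the IFIT family −0.01 (0 of 4), the ISG15 system 0.20 (0 of 3), the sensors 0.07 (0 of 3) and the other genes −0.06 (0 of 7). The median of the sensors was −0.04 with TPM scaling and −0.07 with the trends with GC content and length removed, while the medians of the other groups kept their sign. In the IFIT family the groups overlapped. Ifit2 had 25.8, 25.6 and 29.8 FPKM in LPS+anti-CD36 cells, against 19.7, 29.8 and 33.6 FPKM in LPS cells. Ifit3 had 22, 23.7 and 27.2 FPKM in LPS+anti-CD36 cells, against 20.4, 26.8 and 26.8 FPKM in LPS cells. The interval of the Ifit3 change ran from −0.33 to 0.30, and that of Ifit2 from −0.43 to 0.43. Zbp1 had 56.2, 55.6 and 51.9 FPKM in LPS+anti-CD36 cells, against 54.1, 49 and 44.5 FPKM in LPS cells. Isg20 had 117, 105 and 93.7 FPKM in LPS+anti-CD36 cells, against 118, 91.3 and 76.2 FPKM in LPS cells. Both pairs of groups overlapped. Isg15 had 354, 297 and 283 FPKM in LPS+anti-CD36 cells, against 320.5, 232 and 195 FPKM in LPS cells, with overlap through LPS replicate 1 (0.34 ± 0.20, adjusted p = 0.236).

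For the antibody alone, no gene of the 33 was called against untreated cells by limma, with a background of 0.341% of all genes called, 0.146% higher and 0.195% lower. An unadjusted p under 0.05 was found for 3 of the 33 and for 19.2% of all genes. The median change was 0.07, against −0.01 over all genes tested, and −0.02 with TPM scaling, and single changes ran from −0.22 to 0.48. The 3 genes were Oas1g, Oasl1 and Zbp1. Oasl1 had 39.2, 30.7 and 34.1 FPKM in anti-CD36 cells, against 27.1, 24.7 and 21.6 FPKM in untreated cells (0.48 ± 0.12, adjusted p = 0.113). Oas1g had 31.7, 28.2 and 30.3 FPKM in anti-CD36 cells, against 24.3, 21.8 and 19.2 FPKM in untreated cells (0.45 ± 0.09, adjusted p = 0.069). In both genes all libraries with the antibody were above all without it, as in Zbp1 and Oas3. These 4 of 33 compare with 22.7% of all genes without overlap, 12.1% above and 10.5% below. Zbp1 had 2.48, 2.09 and 1.79 FPKM in anti-CD36 cells, against 1.76, 1.55 and 0.769 FPKM in untreated cells (0.42 ± 0.15, adjusted p = 0.185). Oas1g was called in 5 of 19 other settings, and with the GC content and length trend removed both Oas1g (0.31, adjusted p = 0.00869) and Oasl1 (0.28, adjusted p = 0.0125) were called. The background in that setting was 4.03% of 10092 genes, 1.57% higher and 2.47% lower.

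Parp14 and Cmpk2 had no such difference without LPS that passed the test. Parp14 had 4.35, 5.52 and 4.32 FPKM in anti-CD36 cells, against 4.52, 5.26 and 7.44 FPKM in untreated cells. Cmpk2 had 4.99, 5.59 and 4.94 FPKM in anti-CD36 cells, against 4.92, 4.73 and 5.73 FPKM in untreated cells. Both overlapped, and the intervals of the changes were −0.60 to 0.17 for Parp14 and −0.16 to 0.19 for Cmpk2. The interaction was not called for either gene (adjusted p = 0.742 and 0.445).

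Within groups the 33 genes deviated together by GC content and length, a pattern also present over all genes. Over the 33, the rank correlation of the deviation of a library from its group mean with GC content was 0.75 in LPS replicate 1, −0.73 in LPS replicate 2 and −0.72 in LPS replicate 3. It was 0.73, 0.20 and −0.71 in LPS+anti-CD36 replicates 1 to 3, 0.59, −0.67 and 0.18 in anti-CD36 replicates and 0.68, 0.52 and −0.66 in untreated replicates. Over 10092 genes it was 0.65, −0.44 and −0.64 in LPS replicates 1 to 3 and 0.49, 0.01 and −0.47 in LPS+anti-CD36 replicates. Anti-CD36 replicates had 0.53, −0.59 and 0.08, and untreated replicates 0.47, 0.48 and −0.56. With length, LPS replicates had −0.53, 0.35 and 0.59 over the 33, and −0.45, 0.31 and 0.44 over the 10092. In LPS replicate 1, genes of low GC content such as Slfn8, Ifit2 and Ifih1 lay below their group mean, and genes of high GC content such as Isg15, Isg20 and Bst2 above it.

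Changes with the antibody ran along the same properties. For LPS+anti-CD36 against LPS, the rank correlation of the change with exon length was −0.68 over the 33 genes and −0.50 over all genes, and with GC content 0.56 and 0.37. For anti-CD36 against untreated it was −0.61 and −0.51 with length, and 0.72 and 0.55 with GC content. The change with LPS alone had values of −0.16 and 0.05 with length and 0.11 and −0.07 with GC content. For the interaction they were −0.45 and −0.18 with length and 0.19 and −0.10 with GC content. These are descriptions, since the genes share libraries. With the trends removed, the 4 genes called between LPS+anti-CD36 and LPS were called in the same direction (Oasl1 0.38, Oas1g 0.19, Parp14 −0.46 and Cmpk2 −0.25), with Rsad2 (−0.29), Phf11d (−0.18) and Rtp4 (−0.17) called lower beside them. These calls are near the background in this setting, where 23.6% of 10092 genes were called, 11.4% higher and 12.2% lower. The part of RNA quality or library preparation in these patterns was not tested.

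**Figure D4:**
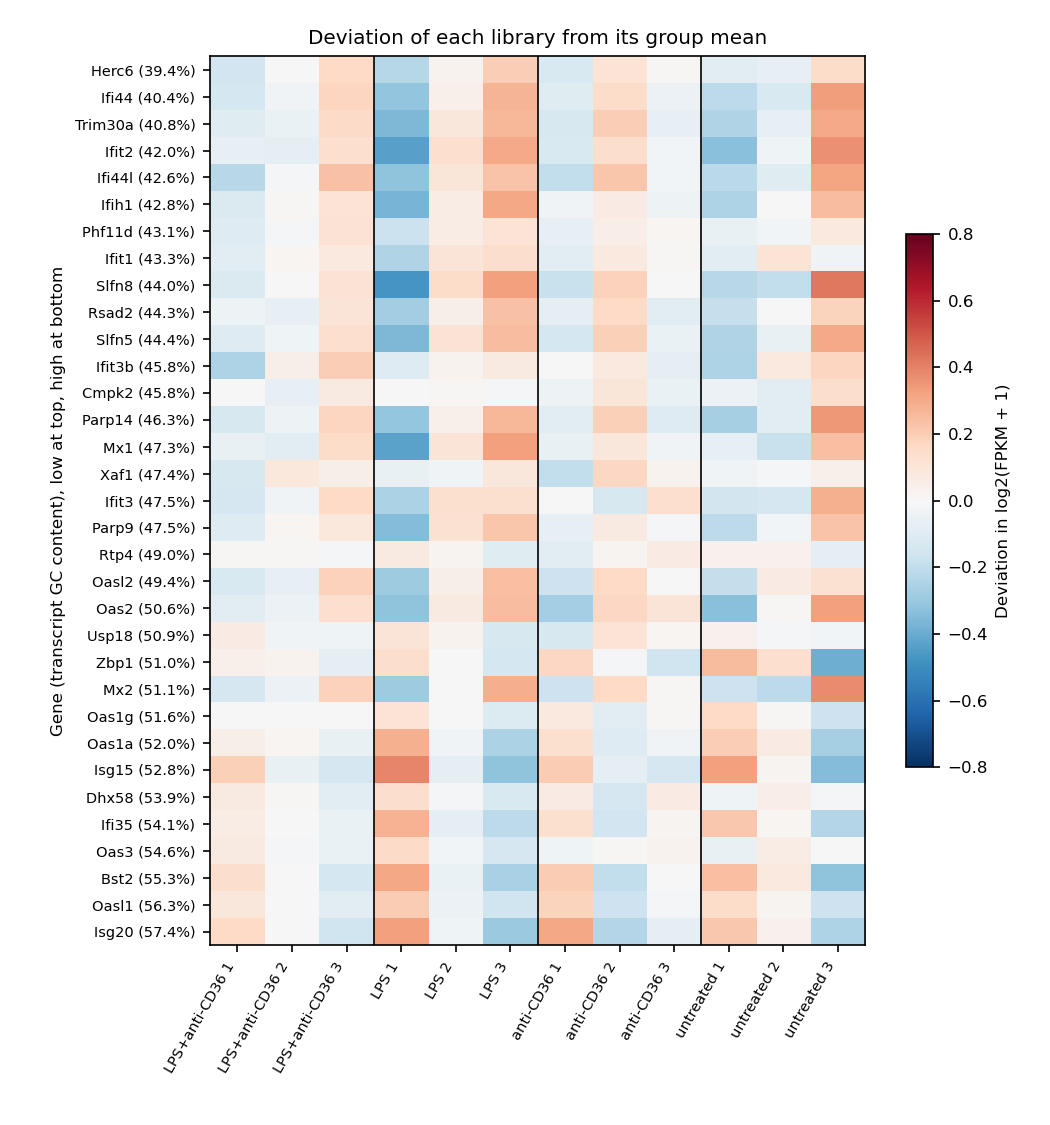
Deviation of each library from the mean of its group, in log2(FPKM + 1), for the 33 genes ordered by transcript GC content. In LPS 1, untreated 1 and LPS+anti-CD36 1 most genes of low GC content lie below the mean and most of high GC content above it, and in the third library of those groups the pattern is turned round.

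Interferon beta, a ligand of the interferon receptor, was measured at low level. Whether it caused the LPS changes of the interferon-stimulated genes was not tested. Interferon beta (Ifnb1) had 52, 50 and 48 counted reads in LPS+anti-CD36 libraries and 39, 24 and 22 in LPS libraries, and none in any anti-CD36 or untreated library. That is 1.88, 1.66 and 1.32 FPKM in LPS+anti-CD36 cells and 1.61, 1.02 and 0.866 FPKM in LPS cells, while 0 reads allow up to 0.105 to 0.133 FPKM in anti-CD36 libraries and 0.0739 to 0.133 FPKM in untreated libraries (3 reads, counting error only). These bounds take counted reads as independent and are too low if both ends of a fragment were counted. The LPS groups overlapped, and Ifnb1 did not pass the test between them (0.28 ± 0.12, adjusted p = 0.122). The listed interferon alpha genes, Ifnab, Ifne, Ifng, Ifnl2 and Ifnl3 were at 0 in every library, and Ifnk reached at most 0.0688 FPKM. These interferon alpha genes are near-identical copies, and reads shared among them may not have been counted.

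Of 45 listed genes of the interferon pathway, 25 were tested, and with LPS 11 were higher and 5 lower than in untreated cells, with a median of 0.34. The background was 16.6% of all genes higher and 33.1% lower. Ifnb1, 1 of the 11, passed the filter only through libraries with LPS. For the receptor, Ifnar1 did not pass the test, at 7.91 ± 1.16 FPKM in LPS cells and 7.98 ± 1.16 in untreated cells, and Ifnar2 was lower, at 3.97 ± 0.212 FPKM in LPS cells and 6.15 ± 0.872 in untreated cells (−0.52 ± 0.09, adjusted p = 0.000715). Downstream, Tyk2 (0.46), Stat2 (1.53) and Irf9 (0.61) were higher, and Jak1 was not called. Irf7, which amplifies interferon production, was at 181 ± 34.8 FPKM in LPS cells and 25.8 ± 2.95 FPKM in untreated cells (2.75 ± 0.14, adjusted p = 1.98e-08; SD, n = 3 each). Upstream of the ligand, the adaptor Ticam1 (1.24) and the kinase Ikbke (2.40) were higher, while Tlr4 (−0.50) and Irf3 (−0.33) were lower, though not called in 6 and 8 of 19 other settings. Of the inhibitors, Socs3 was higher (3.94), and Socs1 stayed under the filter at no more than 0.634 FPKM.

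**Figure D5:**
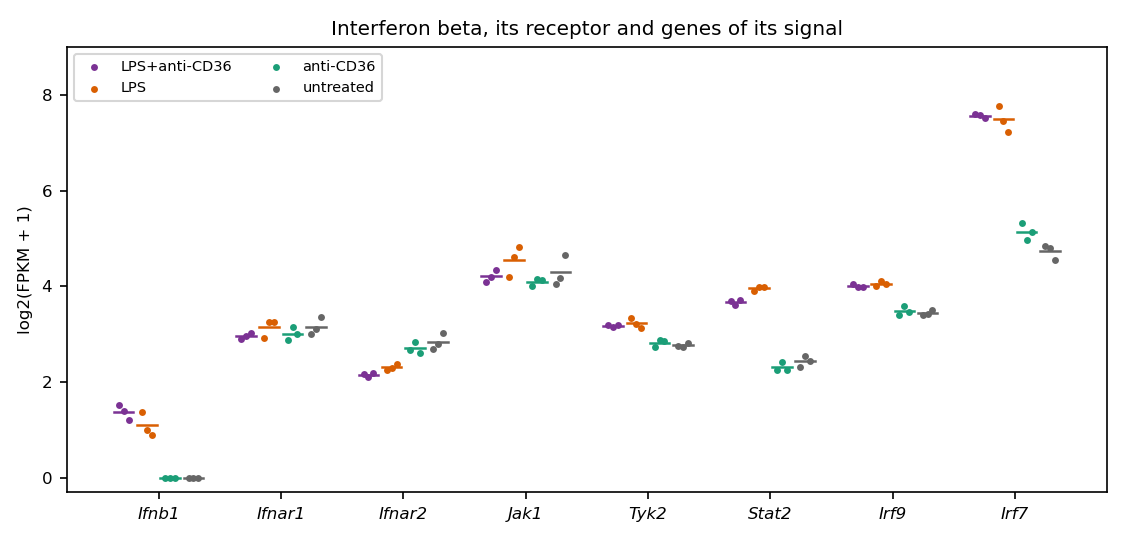
Interferon beta, its receptor chains, the receptor's kinases, Stat2, Irf9 and Irf7, in log2(FPKM + 1), with 1 point per library, a bar at the mean of log values and 3 libraries per group. Ifnb1 is at 0 in both groups without LPS, and Stat2, Irf9 and Irf7 lie higher in both groups with LPS, while Ifnar2 lies lower.

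Between LPS+anti-CD36 and LPS cells, 5 of the 25 pathway genes tested were called (20%), against the background of 15.5%, so the count itself does not set the list apart. Socs3, which restrains cytokine signals, had 60.5, 56 and 53.7 FPKM in LPS+anti-CD36 cells, against 44.3, 34.5 and 30.8 FPKM in LPS cells (0.64 ± 0.11, adjusted p = 0.00476), and Irf3 was also higher (0.39, not called in 11 of 19 other settings). Tlr4 had 3.52, 3.89 and 4.53 FPKM in LPS+anti-CD36 cells, against 5.13, 7.81 and 8.28 FPKM in LPS cells (−0.68 ± 0.17, adjusted p = 0.0228, not called in 6 of 19 other settings). The adaptor Ticam2 was lower, at 2.22, 2.25 and 2.78 FPKM in LPS+anti-CD36 cells, against 3.46, 4.49 and 4.54 FPKM in LPS cells (−0.59 ± 0.12, adjusted p = 0.00869). The groups did not overlap in Socs3, Tlr4, Ticam2 or Stat2, while over all genes 36.1% did not. Stat2, of the complex that binds the response element, had 12, 11.2 and 12.2 FPKM in LPS+anti-CD36 cells, against 14, 15 and 14.9 FPKM in LPS cells (−0.29 ± 0.08, adjusted p = 0.0361), and was not called in 7 of 19 other settings. Against anti-CD36 cells, LPS+anti-CD36 cells had 12 pathway genes higher and 5 lower. Without Ifnb1, which passed the filter only through libraries with LPS, 11 were higher and 5 lower. Of all genes, 16.3% were higher and 31.3% lower in this comparison. No pathway gene was called for the antibody alone or in the interaction. An unadjusted p under 0.05 was found for 5 of 25 with the antibody alone, against 19.2% of all genes. In the interaction it was found for 2 of 25, against 8.6%, so both counts are near the background.

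A wider list of 53 other interferon-stimulated genes, 52 of them tested, had 43 genes higher and 2 lower (Ifi27 and Slfn9) in LPS than in untreated cells, with a median of 1.18. The background was 16.6% of all genes higher and 33.1% lower. Of the 52, 6 passed the filter only through libraries with LPS (Ifi209, Ifi211, Ms4a4c, Phf11a, Slfn1 and Trim30d), and without them 37 were higher and 2 lower. It shares genes, among them Stat2, Irf7 and Irf9, with the pathway list. Against anti-CD36 cells, LPS+anti-CD36 cells had 43 higher and 2 lower, and without the 6 genes that passed only through libraries with LPS 37 higher and 2 lower. Of all genes, 16.3% were higher and 31.3% lower in that comparison. Between LPS+anti-CD36 and LPS cells 4 were higher and 11 lower, with a median of −0.09, against a background of 7.34% higher and 8.14% lower. Whether this list differs from other genes was not tested. The 4 were the chemokines Ccl5 (0.63) and Cxcl10 (0.42) and the Schlafen genes Slfn1 (0.86) and Slfn2 (0.29). Among the 11 were Ifi211 (−0.64), Ifi207 (−0.57) and Ifi203 (−0.54), of the PYHIN family, which holds DNA sensors, and Trim25 (−0.41), a ligase that acts on the RNA sensor RIG-I. Ifi211 and Slfn1 are among those that passed the filter only through libraries with LPS. Of these 8 named genes, Ccl5 and Slfn1 were called in all 19 other settings and the rest in 9 to 17. The antibody alone gave no call in this list, where 13 of 52 genes had an unadjusted p under 0.05, against 19.2% of all genes. In the interaction 1 gene of the list was called, Slfn1, higher, against 1.28% of all genes. Values below 0 were found for 41 of the 52, with a median of −0.18, against 0.01 over all genes tested. An unadjusted p under 0.05 was found for 10 of 52, against 8.6% of all genes. The genes share libraries, so these counts are a description.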

How the data were processed

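FPKM values were computed by the authors and deposited as 1 table with a column per library, per the file headers. HISAT2 2.0.5 and the builds mm39 and hg38, without a role, are named per the submitters' processing notes. The counting tool, strand and annotation were not given in the sources used here. From the table, values were analysed as log2(FPKM + 1) with limma 3.58.1 (R 4.3.3), as 1 model of 4 group means with an intensity trend and no block. Il6 was left out, since in 6 libraries its value equalled that of Gm10874, and 82 repeat entries of lower mean were dropped. Depth was recovered with Python 3.11.15 from values times GENCODE M21 exon lengths, where 94.8% to 94.9% of genes above 0 came out whole within 0.02 reads. Of 396 member values 361 were whole, the exceptions being Mx1, Mx2 and Isg15. Even counts were more frequent than odd, so a read end may be the unit. GC content and length come from GENCODE M21, promoters from RefSeq GRCm38.p6.

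The members and lists were chosen with earlier results of these data known. Values in every library are given for members called with the antibody, the 3 largest and 3 smallest LPS changes and the highest of each role, with Oas1a and Usp18 added after their values were seen. Alternatives were a pseudocount of 0.1, no filter, TPM and median-of-ratios scaling, a replicate block, single libraries left out, only the groups compared and, added later, GC content and length trends removed. The fit was tested on simulated data.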

Additional observations from a re-analysis of the deposited data

Results flagged for a closer look

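The LPS change of Slfn1, a Schlafen gene outside the 33, differed with the antibody, which flagged it: the change with anti-CD36 minus that without it was 0.84 on the log2(FPKM + 1) scale (limma interaction, adjusted p = 0.00332). Slfn1 had 4.44, 4.82 and 4.41 FPKM in LPS+anti-CD36 cells and 1.76, 2.35 and 2.12 FPKM in LPS cells, against 0.0565, 0 and 0 FPKM in anti-CD36 cells and 0.0198, 0 and 0 FPKM in untreated cells. Slfn1 passed the filter only through libraries with LPS. With both groups without LPS near 0, the interaction repeats the difference between LPS+anti-CD36 and LPS cells (0.86) and is no separate result. It was called in 16 of 18 other settings and not with a pseudocount of 0.1 or TPM scaling, where adjusted p reached 0.321. Schlafen genes are near-identical in part, so reads could be split among them.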

How the results depend on the processing

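Counts of called genes are over the 33. With LPS against untreated they ran from 31 to 33 in the settings tried and with LPS+anti-CD36 against anti-CD36 from 30 to 32. Over all genes the share called ran from 30.1% to 61.3% and from 29% to 59.8%. For LPS+anti-CD36 against LPS, called with 4 genes, there were 2 without a filter, 7 with GC content and length trends removed, and 0 to 14 with single libraries left out: 14 when replicate 1 of LPS was dropped, 0 for its replicate 2, 1 for its replicate 3, and 0, 1 and 2 for replicates 1, 2 and 3 of LPS+anti-CD36. Over all genes 38.7% were called without LPS replicate 1, 5.55% without its replicate 2 and 7.19% without its replicate 3, against 15.5%. The share was 5.98%, 5.36% and 8% without LPS+anti-CD36 replicates 1, 2 and 3, and 6.95% without a filter. These counts of members thus moved with the background. For anti-CD36 against untreated, with 0 called, there was 1 with TPM scaling, 2 with the trends removed, and 0 to 1 without single libraries (1 without untreated replicate 1 or LPS replicate 1). Over all genes the share was 0.156% with TPM scaling, 0.605% without untreated replicate 1 and 1.28% without LPS replicate 1. The interaction had 0, except 2 with the trends removed, and 0 to 0 without single libraries. With the trends removed, calls over all genes were also more frequent. They were 23.6% for LPS+anti-CD36 against LPS, 4.03% for anti-CD36 against untreated and 3.47% in the interaction. The cause was not tested.

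Libraries of the same replicate number correlated in their deviations by 0.45 to 0.78 for number 1, −0.32 to 0.43 for number 2 and −0.07 to 0.81 for number 3. For number 3 the values were 0.54 to 0.81 among untreated, LPS and LPS+anti-CD36, and −0.07 to 0.03 with anti-CD36. Deviations were thus shared under some numbers and not under others. The labels do not say that the numbers pair libraries, so the main model had no block. A replicate block gave 13 calls (4 higher, 9 lower) for LPS+anti-CD36 against LPS and 4 for anti-CD36 against untreated (Isg15, Oasl1, Oas1g and Zbp1), near the 35.5% and 11.3% of all genes called under it. Over all genes it gave 1164 calls for anti-CD36 against untreated, against 35.

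Over all genes, median-of-ratios scaling moved the median LPS change to 0.00, against −0.14, and the calls to 2352 higher and 2226 lower, against 1710 and 3403, and for LPS+anti-CD36 against anti-CD36 to 2252 higher and 2211 lower, against 1670 and 3212. TPM scaling moved the median change for LPS+anti-CD36 against LPS to −0.09, against 0.02, and the calls to 386 higher and 790 lower, against 754 and 836. It gave 11 higher and 5 lower for anti-CD36 against untreated, against 15 and 20, and 27 and 77 in the interaction, against 51 and 81. No called gene of the 33 changed direction in these settings. Changes that were not called took the other sign in 17 genes for anti-CD36 against untreated, 15 in the interaction and 11 for LPS+anti-CD36 against LPS. At 30070450 counted reads, genes under 1 FPKM such as Ifit3b and Mx1 without LPS rest on few reads.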
